A study of Mus musculus with 7 samples.

Results

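Loss of Erg in the earliest B-lineage progenitors was examined here through the accessible regions that a WT pre-proB library held and an Erg KO pre-proB library lacked, and the reverse. Pre-proB cells are the first bone marrow cells of the B lineage, before the immunoglobulin heavy chain gene is fully rearranged. A WT peak that no Erg KO peak overlapped by at least 1 bp was called closed, and an Erg KO peak that no WT peak overlapped was called opened. Of 95662 WT peaks 6586 were closed, a share of 6.88%, and of 102605 Erg KO peaks 13910 were opened, a share of 13.6%. These 20496 regions were drawn from the 198267 peaks of both lists and the 647973 peaks of the series.

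The assay was ATAC-seq, in which the Tn5 transposase cuts and tags open DNA, on bone marrow cells sorted as pre-proB, proB or preB cells from mice. WT mice were Ergfl/fl, with both alleles flanked by sites for Cre. Erg KO mice were Rag1CreT/+;Ergdelta/delta, in which Cre driven from Rag1 deletes Erg from the common lymphoid progenitor onwards, so that T-lineage as well as B-lineage cells lack it. Erg Rescue mice were Rag1CreT/+;Ergdelta/delta;IgHVH10tar and carried, in addition, a heavy chain allele that was already rearranged. The Cre transgene was therefore present in the Erg KO and Erg Rescue libraries and absent from WT, and its presence and the loss of Erg cannot be told apart in this comparison. Each of the 7 groups was 1 library, and no test between groups was possible. The mice were of both sexes and spanned a range of ages, and neither the age nor the number of mice pooled is stated for a given library. For the 3 Erg Rescue libraries the source names in the labels give another stage than the titles, and the stages used here are those of the titles. Of the shared WT pre-proB peaks, 98.1% were in the library titled Erg Rescue pre-proB, against 74.9% and 65.6% in those titled Erg Rescue proB and Erg Rescue preB. The intervals given below cover counting error only.

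Erg is a transcription factor of the ETS family, whose members bind a GGAA core, and is known for its part in blood stem cells and in the megakaryocyte lineage. Commitment to the B lineage is run by a small set of transcription factors, in which the E protein TCF3 and EBF1 come first and PAX5 follows, together switching on the genes of the pre-B cell receptor. The surrogate light chain (Vpreb1, Vpreb2 and Igll1) and the signalling chains Cd79a and Cd79b build that receptor, and Pou2af1 encodes a B-cell coactivator that works with octamer-binding proteins.

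The height of a peak was read as its summit pileup, the number of fragments piled over its highest base. The lowest peak in either list held 12 fragments, so a region missing from a list could still have held fewer fragments than that. It could also have held more, since both lists called fewer peaks of 12 to 16 fragments than of 17 to 20. Background pileups were 4.16 fragments in WT and 4.46 in Erg KO, which gave close detection limits. A peak was called clear where its pileup stood beyond counting error above the lowest pileup called in the other list. This needed 30 fragments in WT and 33 in Erg KO. At that height 593 of 63899 WT peaks were closed, or 0.928%, and 204 of 64322 Erg KO peaks were opened, or 0.317%. The balance between the directions thus turned with the height of the peaks counted, from more opened than closed among all peaks to more closed than opened among the clear ones. In bulk samples fewer cells of a type and less accessibility per cell cannot be told apart.

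Most regions in both classes were weak, which the rule favours, since a low peak is more easily missed in the other list. The median pileup was 19 fragments in closed peaks against 49 in shared WT peaks, and 19 in opened peaks against 56 in shared Erg KO peaks. The highest closed peak had 97 fragments and the highest opened peak 418. Closed peaks had a median width of 261 bp and opened peaks 258 bp, against 508 and 534 bp for shared peaks of the WT and Erg KO lists. Among the 89076 shared WT peaks the log2 ratio of Erg KO to WT pileup, scaled by background, had a median of 0.05, a 5th percentile of -0.44 and a 95th percentile of 0.64. A peak of the other list lay within 500 bp of 17.8% of closed and 15.7% of opened peaks.

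The clear closed peaks lay away from promoters and were strongly open later in the B lineage. Only 3.54% of the 593 (95% Wilson interval 2.33 to 5.35) reached within 1000 bp of a coding TSS, against 17.1% of shared WT peaks of any height. Any overlap with that window counted, and shared WT peaks were wider than closed peaks as a whole, with medians of 508 and 261 bp. Of the 593, 49.6% were in introns and 40.8% between genes. Of the 593 peaks 579, or 97.6% (96.1 to 98.6), overlapped a WT proB peak and 566, or 95.4%, overlapped a WT preB peak. Only 113 overlapped a peak of Erg Rescue pre-proB, the other library of Erg-deleted pre-proB cells (19.1%, 16.1 to 22.4). In Erg Rescue proB 522 were present (88.0%) and in Erg Rescue preB 503 (84.8%), although both libraries carried the deleted allele. Shared WT peaks differed, of which 98.1% were found in Erg Rescue pre-proB, while WT proB held 66.2% and WT preB 59.5%.

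The same peaks were lower in WT pre-proB than in the proB and preB libraries that called them. Their median fold over background was 7.37 in WT pre-proB, and among the peaks called at later stages it was 55.2 for WT proB and 36.2 for WT preB, with 29.96 for Erg Rescue proB and 38.0 for Erg Rescue preB. In Erg Rescue pre-proB the 113 peaks called had a median fold of 3.93. Shared WT peaks above the counting limit had medians of 15.3 in WT pre-proB and 15.3 in WT proB. The clear closed peaks were low in the WT pre-proB library relative to shared peaks above the limit. The rule that picked them favours low WT peaks, so that height is no separate result. Where called in the WT proB library, which the rule did not use, the clear closed peaks were high relative to those shared peaks. How much of this came from cells close to the proB stage within the WT pre-proB sort was not tested. Of all closed peaks, clear or not, 61.6% overlapped a WT proB peak, against 66.2% of shared WT peaks.

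**Figure D1:**
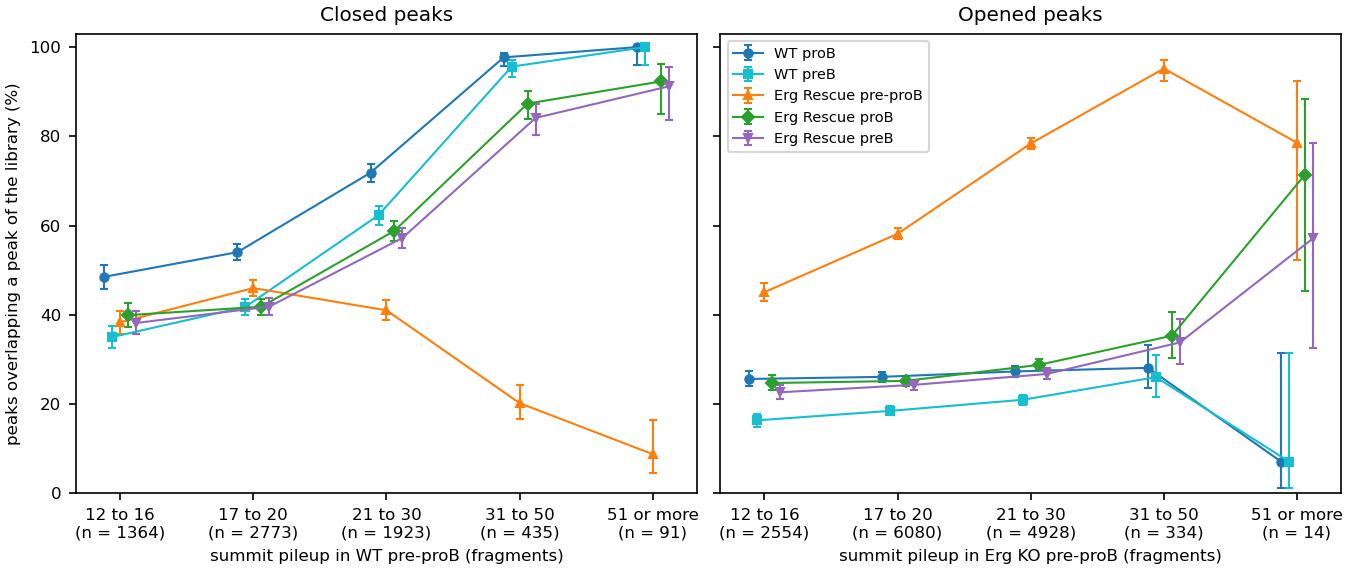
Share of closed peaks (left) and opened peaks (right) that overlapped a peak in each of the other 5 libraries, by summit pileup in fragments, with bars for the 95% Wilson interval and the number of peaks under each class of height. Closed peaks of 51 or more fragments were all present in WT proB and WT preB, and 8.79% were present in Erg Rescue pre-proB, while opened peaks of 31 to 50 fragments were mostly found in Erg Rescue pre-proB.

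Taller closed peaks were more often present in the proB and preB libraries, and those above 30 fragments were less often present in Erg Rescue pre-proB. Of the 1364 closed peaks of 12 to 16 fragments, 48.5% overlapped a WT proB peak and 38.3% an Erg Rescue pre-proB peak. Of the 435 of 31 to 50 fragments, 97.7% and 20.2% did so, and of the 91 of 51 fragments or more, 100% and 8.79% did so. Shared WT peaks of 31 to 50 fragments were in WT proB in 63.4% of cases. The commonest pattern, in 1878 of all 6586 closed peaks (28.5%) and 408 of the 593 clear ones (68.8%), was presence in the proB and preB libraries of both genotypes and absence from Erg Rescue pre-proB. A further 905 closed peaks (13.7%) were in no other library.

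Opened peaks showed another pattern. Of all 13910, 63.9% overlapped an Erg Rescue pre-proB peak, 26.5% a WT proB peak and 19.2% a WT preB peak. Of the 204 clear ones, 192 were in Erg Rescue pre-proB (94.1%), 83 in Erg Rescue proB, 75 in Erg Rescue preB, 53 in WT proB and 50 in WT preB. The commonest pattern was presence in Erg Rescue pre-proB and in no other library, in 5210 opened peaks (37.5%) and in 99 of the clear ones (48.5%). The 204 clear opened peaks had a median fold of 6.596 in Erg KO, where the rule favours low peaks. The 192 of them called in Erg Rescue pre-proB had 5.54 there, so they were low in that library too. Among those called in each of the other 5 libraries, the median ran from 4.62 to 6.40. The lowest was over the 53 called in WT proB and the highest over the 75 called in Erg Rescue preB. The clear closed peaks called in WT proB had 55.2.

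The sequence under the summits of the closed peaks was searched for short patterns bound by known factors, in 200 bp windows and on both strands. The letters TCCCNNGGGA, the palindrome bound by EBF1, were held by 54 of the 593 clear closed windows (9.11%, 7.05 to 11.7), by 211 of all 6586 closed windows (3.20%, 2.80 to 3.66) and by 0.460% of shared WT windows. Read backwards, as AGGGNNCCCT, the same composition was held by 1.18% of clear closed windows and 0.528% of shared ones. Among opened windows TCCCNNGGGA was held by 0.280%, against 0.414% of shared Erg KO windows. Shared WT peaks matched on pileup to the clear closed ones held it in 0.494% of windows. Of the strongest clear closed peaks with a match within 75 bp of the summit and no annotated exon in the window, 5 are shown on the plus strand of mm10 (GRCm38), with the match in capitals, because they carry this pattern. They had 50 to 62 fragments, and the first lay between genes while the other 4 lay in introns.
Peak nearest to Tmem64, chr4:15252610-15252760: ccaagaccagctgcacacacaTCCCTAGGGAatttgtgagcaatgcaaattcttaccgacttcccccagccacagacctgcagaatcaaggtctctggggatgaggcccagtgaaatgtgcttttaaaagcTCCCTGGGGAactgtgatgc
Peak nearest to Bean1, chr8:104185076-104185226: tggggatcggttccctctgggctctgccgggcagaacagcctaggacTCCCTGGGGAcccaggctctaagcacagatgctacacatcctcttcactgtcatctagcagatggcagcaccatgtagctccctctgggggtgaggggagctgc
Peak nearest to Tmem163, chr1:127511434-127511584: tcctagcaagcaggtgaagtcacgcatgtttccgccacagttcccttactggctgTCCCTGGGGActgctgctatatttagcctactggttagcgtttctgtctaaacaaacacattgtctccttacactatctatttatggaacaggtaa
Peak nearest to Zdhhc19, chr16:32524000-32524150: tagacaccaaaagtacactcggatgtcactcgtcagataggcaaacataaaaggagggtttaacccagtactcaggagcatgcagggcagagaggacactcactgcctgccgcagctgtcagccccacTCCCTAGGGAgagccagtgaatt
Peak nearest to Bcar3, chr3:122378842-122378992: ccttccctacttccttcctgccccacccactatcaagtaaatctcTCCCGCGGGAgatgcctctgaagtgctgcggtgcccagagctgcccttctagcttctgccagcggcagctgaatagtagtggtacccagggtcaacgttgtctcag

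All of the 54 clear closed peaks with these letters were present in WT proB and 53 in WT preB, while 5 were present in Erg Rescue pre-proB (9.26%, 4.02 to 19.9) against 20.04% of those without the letters. Among all closed peaks, 205 of the 211 with the letters overlapped a WT proB peak (97.2%), against 60.5% of those without them. In Erg Rescue pre-proB the shares were 10.9% and 41.7%.

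Further patterns differed between clear closed and shared WT windows. The E-box letters CACCTG or CAGCTG, bound by E proteins such as TCF3, were in 58.3% of clear closed windows (54.3 to 62.2) and 36.3% of shared ones. The ETS letters ACAGGAAG or ACCGGAAG were in 13.0% (10.5 to 15.9) and 6.48%, and the octamer ATGCAAAT, bound by POU2F factors, was in 3.71% (2.46 to 5.55) and 1.02%. The TCF/LEF letters CTTTGAA or CTTTGAT were in 11.1% and 6.02%. The PU.1 letters GAGGAAGT were rarer in clear closed windows, at 3.71% against 7.82%, as were the IRF letters GAAANNGAAA, at 1.35% (0.685 to 2.64) against 5.498%. RUNX letters, TGTGGTT, were at 11.6% in both.

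The differences were smaller when all closed peaks were counted, with E-box letters in 38.1% of windows (36.9 to 39.2) and ETS letters in 8.21% (7.58 to 8.90), against the same 36.3% and 6.48% of shared ones. In opened windows the ETS letters were in 4.90%, below the 6.53% of shared Erg KO windows, and the E-box letters in 32.0% against 36.3%. Shared Erg KO windows matched on pileup held the ETS letters in 6.13% and the E-box letters in 32.5%. Of the clear opened windows, 2.94% (1.35 to 6.27) held the octamer against 0.998% of shared ones, which was 6 windows of 204. The PAX5 letters GCGTGAC were in 1.69% of clear closed windows (0.919 to 3.08) and 0.940% of shared ones, or 0.615% of shared ones matched on pileup. Clear closed windows were richer in G and C, with a median of 52.0% against 49.5% in shared WT windows, and the part of base composition in these shares was not tested.

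**Figure D2:**
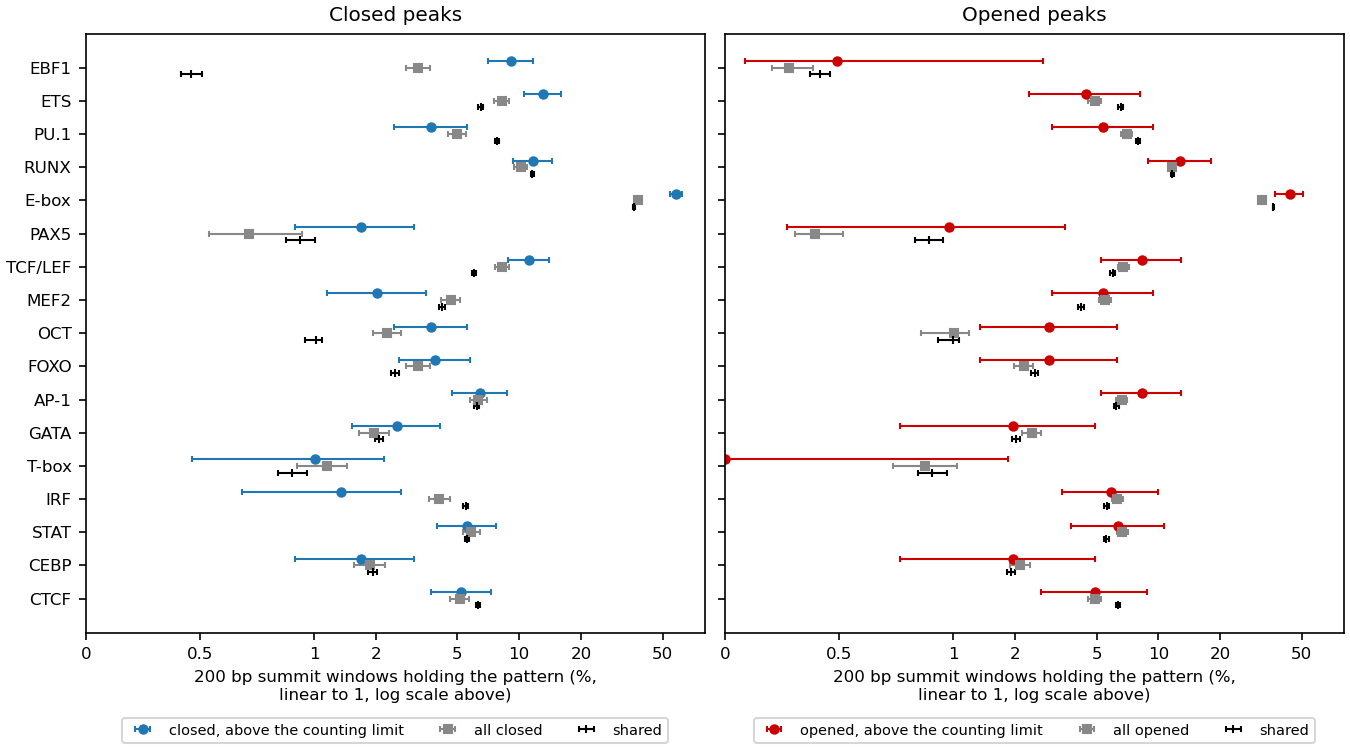
Share of 200 bp summit windows that held each pattern on either strand, in clear, all and shared peaks of the WT list (left) and of the Erg KO list (right), with 95% Wilson intervals and an axis that is linear up to 1% and logarithmic above. The EBF1 letters were in 9.11% of clear closed and 0.460% of shared WT windows, against 0.280% of opened and 0.414% of shared Erg KO windows.

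The B-lineage network genes held a larger share of closed peaks than the list as a whole. Over the 18 genes of the network, 29 of the 233 WT peaks nearest to them were closed, or 12.4% (8.81 to 17.3) against 6.88% of all WT peaks, and 13 of the genes had at least 1. Of their peaks above the counting limit 8 of 153 were closed (5.23%, 2.67 to 9.98) against 0.928% of all. Of the 218 Erg KO peaks nearest to the same genes 18 were opened, or 8.26% against 13.6%, and none of them was clear. All 18 genes had a promoter peak in WT and 13 had one in Erg KO.

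The network genes that had lost theirs were the 5 genes Cd79a, Pax5, Pou2af1, Vpreb1 and Vpreb2. The Cd79a promoter, which drives the alpha signalling chain of the B-cell receptor, had 58 fragments in WT pre-proB (44.04 to 74.98 by the exact Poisson interval), no peak in Erg KO, 19 in Erg Rescue pre-proB, 264 in Erg Rescue proB, 365 in Erg Rescue preB, 433 in WT proB and 370 in WT preB. The Vpreb1 promoter had 43 fragments in WT pre-proB (31.1 to 57.9), no peak in either Erg-deleted pre-proB library, 112 in Erg Rescue proB, 81 in Erg Rescue preB, 300 in WT proB and 95 in WT preB. The Pou2af1 promoter had 37 fragments in WT pre-proB, again no peak in Erg KO or Erg Rescue pre-proB, and 496, 556, 341 and 541 in WT proB, WT preB, Erg Rescue proB and Erg Rescue preB. In each of these the WT pre-proB promoter was lower than the proB and preB promoters of both genotypes. The gap was smallest at Vpreb1, with 43 fragments against 95 in WT preB and 81 in Erg Rescue preB.

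Pax5 and Vpreb2 were lower and stood below the counting limit. The promoter of Pax5, the factor that holds cells in the B lineage, had 18 fragments in WT pre-proB and none called in Erg KO or Erg Rescue pre-proB, against 151 in WT proB and 133 in Erg Rescue proB. Its 2 other closed peaks were in the first intron with 19 and 14 fragments, and all 3 were called in WT proB and in Erg Rescue proB. Vpreb2 had 21 fragments at its promoter and lost all 3 of its WT peaks, while Vpreb1 lost both of its own. These copies are nearly identical in sequence, and a read from one could have been placed at the other.

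Other network promoters were open in both libraries to much the same height. Igll1, the third surrogate light chain gene, had 128 fragments in WT and 113 in Erg KO. The Ebf1 promoter had 110 and 132, Rag1 165 and 177, Rag2 48 and 40, and Cd79b 42 and 35. Bach2 had 384 and 327, Irf4 305 and 341, and Myb 177 and 192.

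At Ebf1 the closed peaks were distal, and the promoter had a peak in both libraries. Of 36 WT peaks nearest to Ebf1 6 were closed. The strongest, with 44 fragments (32.0 to 59.1), and its neighbour with 33 were in intron 10, 333193 and 332002 bp from the TSS, and the same intron held another of 29 fragments at 328674 bp. These 3, and a peak of 21 fragments 42340 bp from the TSS between genes, were called in all 4 proB and preB libraries and in neither Erg-deleted pre-proB library. The remaining 2, of 18 and 19 fragments, were in no other library. In the reverse direction 5 of 35 Erg KO peaks at Ebf1 were opened, the highest of 19 fragments.

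Erg itself lost a pair of strong intron peaks. Of 34 WT peaks nearest to Erg 7 were closed, and all 7 lay within the gene (chr16:95359169-95586593, minus strand). The 2 strongest had 63 fragments (48.4 to 80.6) and 52 fragments (38.8 to 68.2) and stood side by side in intron 2 of the transcript with the longest coding sequence. Both were called in all 4 proB and preB libraries. The Erg Rescue libraries carry the same deleted Erg allele. At the promoter nearest to the 5′ end of Erg the peak had 48 fragments in WT and 57 in Erg KO. A peak at an internal promoter, about 127 kb from that end, had 63 fragments in WT and 19 in Erg KO, and 29 in Erg Rescue pre-proB, and was called in all 3. In the reverse direction 4 Erg KO peaks within the gene were opened, with at most 18 fragments.

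The sequences under the strongest closed peaks of Erg, Ebf1, Lef1, Vpreb1 and Pou2af1 are given below on the plus strand of mm10, 75 bp to either side of the summit, since these regions of Erg and of network genes were above the counting limit. Capitals mark CACCTG or CAGCTG on either strand. None of these windows held TCCCNNGGGA, ACAGGAAG, ACCGGAAG or ATGCAAAT.
Erg, intron peak of 63 fragments, chr16:95428343-95428493: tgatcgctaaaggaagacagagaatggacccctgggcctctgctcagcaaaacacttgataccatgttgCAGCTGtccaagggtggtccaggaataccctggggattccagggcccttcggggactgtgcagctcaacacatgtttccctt
Erg, intron peak of 52 fragments, chr16:95427698-95427848: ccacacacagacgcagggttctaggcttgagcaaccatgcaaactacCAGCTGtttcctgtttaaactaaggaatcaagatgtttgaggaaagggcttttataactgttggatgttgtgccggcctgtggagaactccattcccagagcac
Ebf1, intron peak of 44 fragments, chr11:44950435-44950585: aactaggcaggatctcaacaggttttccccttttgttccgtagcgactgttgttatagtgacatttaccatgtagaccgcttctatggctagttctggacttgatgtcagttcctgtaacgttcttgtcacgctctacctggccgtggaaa
Ebf1, intron peak of 33 fragments, chr11:44949244-44949394: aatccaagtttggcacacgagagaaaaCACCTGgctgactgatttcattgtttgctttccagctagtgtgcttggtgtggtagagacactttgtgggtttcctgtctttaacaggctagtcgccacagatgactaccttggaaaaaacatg
Lef1, intergenic peak, chr3:131102269-131102419: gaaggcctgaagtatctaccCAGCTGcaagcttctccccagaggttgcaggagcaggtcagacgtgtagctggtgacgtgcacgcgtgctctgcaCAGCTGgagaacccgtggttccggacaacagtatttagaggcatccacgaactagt
Vpreb1, promoter peak, chr16:16869290-16869440: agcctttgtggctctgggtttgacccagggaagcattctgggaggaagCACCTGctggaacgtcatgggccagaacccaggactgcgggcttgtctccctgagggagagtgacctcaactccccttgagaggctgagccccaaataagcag
Pou2af1, promoter peak, chr9:51213296-51213446: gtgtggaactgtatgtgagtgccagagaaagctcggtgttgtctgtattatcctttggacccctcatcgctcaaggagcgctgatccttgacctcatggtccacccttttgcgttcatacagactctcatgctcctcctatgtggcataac

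**Figure D3:**
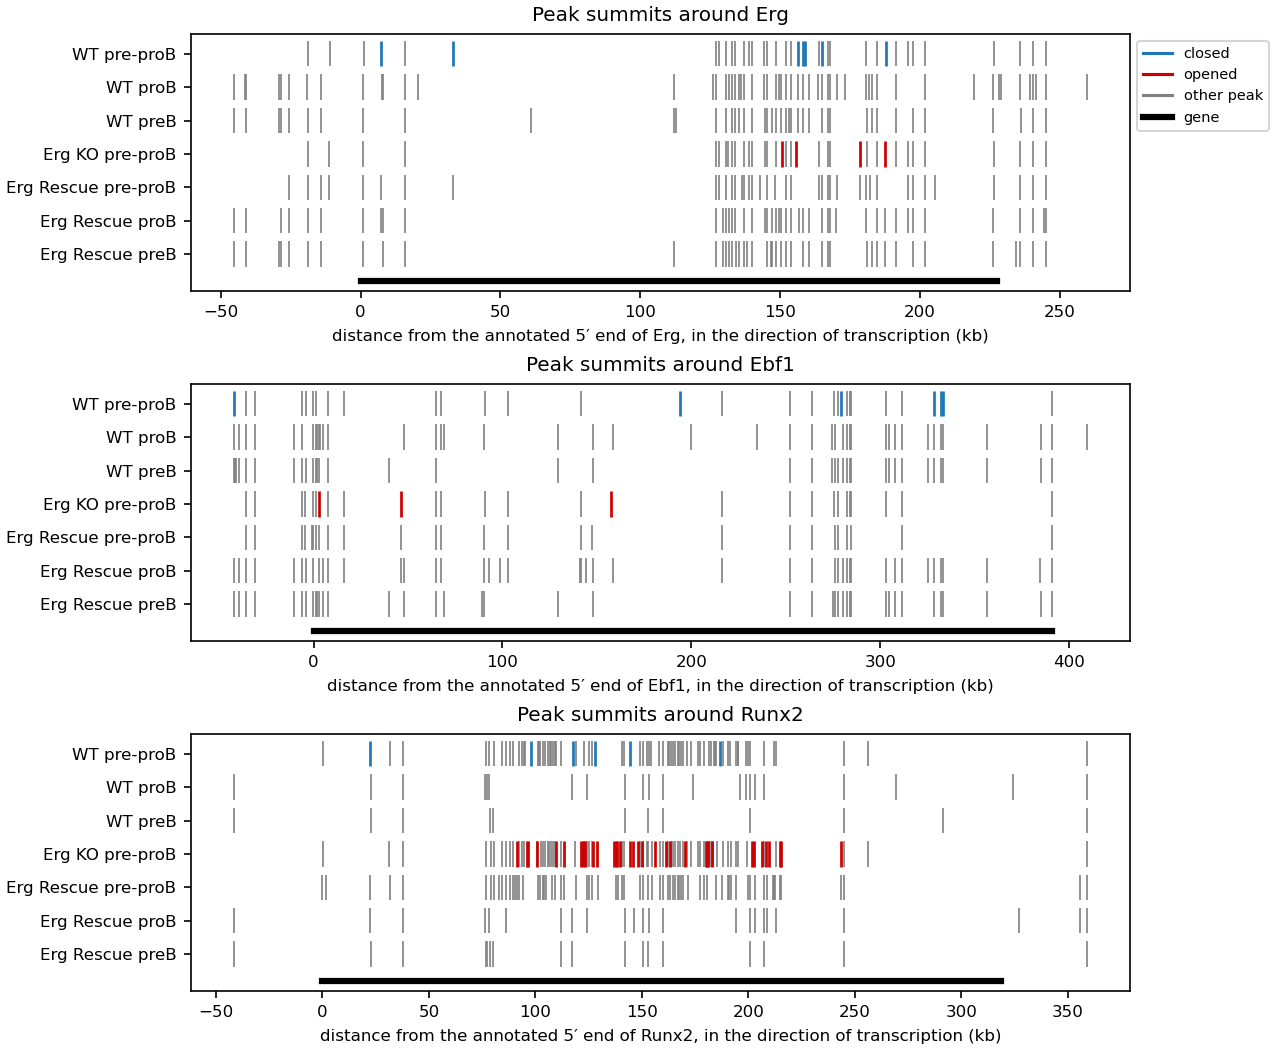
Summits of all peaks within 50 kb of Erg, Ebf1 and Runx2 in each library, by distance in kb from the annotated 5′ end of the gene in the direction of transcription, with closed peaks in blue, opened peaks in red and all others in grey. The closed pairs in Erg and near the 3′ end of Ebf1 stood in WT pre-proB and in the proB and preB libraries, and the opened peaks of Runx2 stood within a dense stretch of peaks.

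Other members of the network lost distal elements. Lef1, a factor of the Wnt pathway active in early B cells, lost a peak of 37 fragments between genes, 8127 bp from its TSS, that was called in all 4 proB and preB libraries. Cd79b lost 2 of 9, of 31 and 29 fragments, both intergenic and both called in all 4 of those libraries. Myb lost a peak of 40 fragments 65507 bp away, and this one was present in Erg Rescue pre-proB as well. Bach2 and Irf4 each lost 2 peaks of at most 18 fragments, and Myc lost 2 of 16 or fewer, all below the counting limit. Both Bach2 peaks were called in all 5 other libraries. The Irf4 peak of 18 fragments lay in an exon of Exoc2 and was in no other library. That of 17 was in WT preB and Erg Rescue proB. Neither Myc peak was called in a proB or preB library. Outside the network, Tcf3, which encodes the E protein TCF3, lost an intron 2 peak of 38 fragments 1089 bp from its TSS. That peak was called in all 4 proB and preB libraries.

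**Figure D4:**
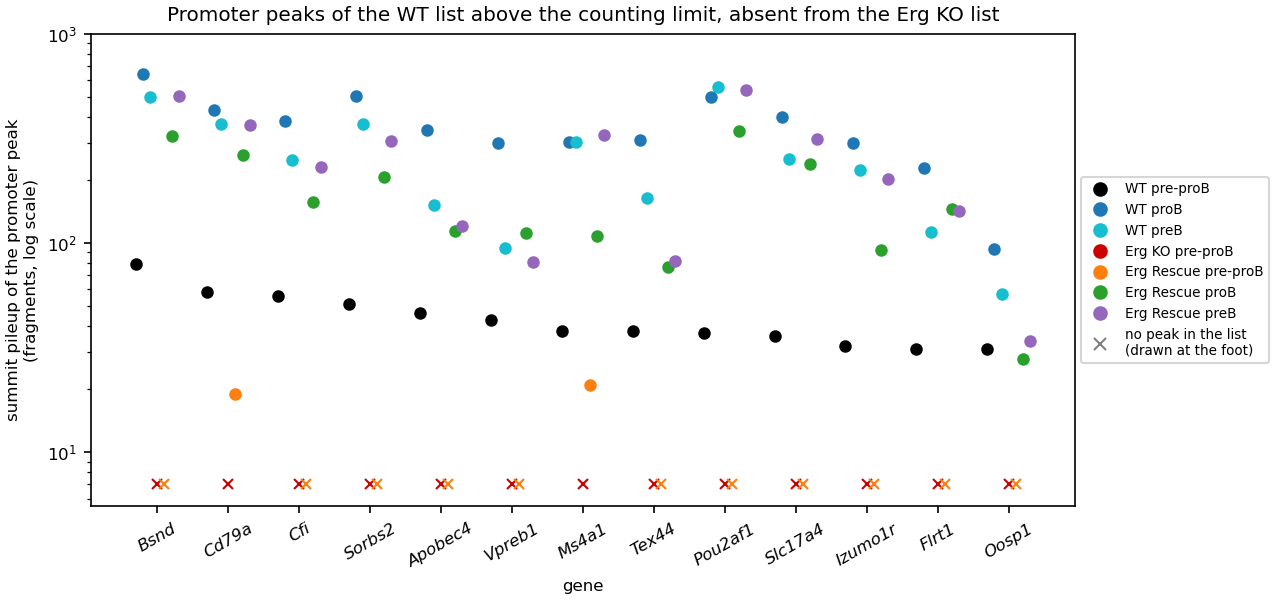
Summit pileup in fragments on a log axis, in each of the 7 libraries, of the promoter peak of the 13 genes whose WT promoter peak was a clear closed peak, with crosses at the foot for libraries with no peak there. Erg KO had no peak at any of the 13 by selection, WT pre-proB held 31 to 79 fragments, and WT proB held more than WT pre-proB at each gene.

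Promoter loss was rare across the genome. Of 21938 coding genes 111 had a promoter peak within 1000 bp of a TSS in WT only (0.506%), 324 in Erg KO only (1.48%) and 13766 in both. Through closed peaks above the counting limit 13 genes lost their promoter peak, and through opened peaks above it 5 gained one. Beside Cd79a, Vpreb1 and Pou2af1, the 13 included Ms4a1, which encodes CD20, with 38 fragments in WT pre-proB, 21 in Erg Rescue pre-proB and 305 in WT proB. The others were Bsnd (79 fragments in WT pre-proB, 645 in WT proB), Cfi (56 and 382), Sorbs2 (51 and 502), Apobec4 (46 and 348), Tex44 (38 and 310), Slc17a4 (36 and 400), Izumo1r (32 and 300), Flrt1 (31 and 227) and Oosp1 (31 and 94). All 13 had a promoter peak in all 4 proB and preB libraries, and 11 of the 13 had none in Erg Rescue pre-proB.

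The rule by height alone also picked promoters that did not rest on a closed peak. Klrb1a (421 fragments), Dlx1 (78), Gm10282 (66) and Tfec (59) held in their WT windows the edge of a peak that the Erg KO list shared outside the window, and Tac4 (182) held both such an edge and a closed peak of 20 fragments. In the reverse direction Hist1h1d (259), Saa1 (224), Gng3 (219), Tmem253 (80), Vstm2l (60), C2cd4d (41) and Ms4a4c (36) were of this kind. Clear promoter gains were found at the olfactory receptor genes Olfr524 (37 fragments) and Olfr556 (36), at Nkx2-2 (35) and at Fam196b (33), and these 4 had a promoter peak in Erg Rescue pre-proB.

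The strongest closed peaks outside the antigen receptor loci lay mostly far from any TSS. The first was intergenic, 37591 bp from Bnc1, with 97 fragments (78.7 to 118), and the second, in intron 2 of Smco4, had 86. Both were called in all 5 other libraries. The next were in intron 1 of Gxylt2 (85 fragments), 57201 bp from Mbip (83), in an exon of Rnf41 and nearest to Smarcc2 (80), at the Bsnd promoter (79), 113753 bp from Ufm1 (78), in an intron of Slc12a7 (77), and near Cnot2 and Bdkrb1 (71 each). These last 8 were each called in all 4 proB and preB libraries and not in Erg Rescue pre-proB.

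Closed peaks were spread thinly over genes. They were nearest to 4347 of the 16793 genes that were nearest to any WT peak, with 1335 genes nearest to at least 2, 494 to at least 3, 104 to at least 5 and 3 to at least 10. The most were at Mbnl1, a splicing regulator, with 13 of 67, at Zfp608 with 12 of 58 and at Zmiz1 with 10 of 70, none of which was clear. St8sia4 and Zfp981 had 9 each, Runx1 and Serp2 had 8, and Erg, Rapgef2, B3gnt2, Med13l, Bcl11a, Foxp1, Rapgef5 and Fam43a had 7. Of these 15 genes Fam43a, with 7 of 22, had the largest share of its WT peaks closed, followed by Zfp981, with 9 of 33, and St8sia4, with 9 of 40. Foxp1, with 7 of 98, had the smallest, and its 7.14% was near the 6.88% of all WT peaks.

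Some of these genes had mainly regions that were open later in the B lineage and others had not. At Serp2 all 8 closed peaks were in both WT proB and WT preB, and 3 were in Erg Rescue pre-proB. At Foxp1, a forkhead factor needed for early B cells, 7 of 7 were in WT proB, and at Runx1 6 of 8 were in WT proB and 1 in Erg Rescue pre-proB. At Zmiz1 7 of 10 and at B3gnt2 6 of 7 were in WT proB. At Mbnl1 only 3 of 13 and at St8sia4 2 of 9 were in WT proB, and Mbnl1 also had 15 opened Erg KO peaks, but with the lists cut to equal length it had 5 of 55 opened and 15 of 67 closed.

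Ranked by clear peaks, a ranking chosen after the values were seen, 528 autosomal genes outside the antigen receptor loci had at least 1 clear closed peak and 53 had at least 2, against 179 and 4 for clear opened peaks. Nav2, Arap3, Dab2ip, Bcar3, Tmem132e and Rarres1 had 3 clear closed peaks each. At Rarres1 these were 3 of 5 WT peaks and at Arap3 the closed peaks were 5 of 12. Rarres1 had all 3 of its closed peaks in each of the 4 proB and preB libraries, and none in Erg Rescue pre-proB. Pde2a had 6 closed of 16, with 58 fragments at the highest and all 6 in WT proB. In the opened direction Rasgef1b had 3 clear peaks of 8 opened, and Shroom3 had 2 of 11, of 20 Erg KO peaks in all.

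Runs of closed peaks, with at least 5 in a row and no gap over 20 kb, numbered 14 and held 90 peaks. One was at Adamts7, a secreted protease, where 6 of 7 WT peaks in a stretch of 20.3 kb (chr9:90181709-90202002) were closed, with 15 to 45 fragments. All 6 were in all 4 proB and preB libraries and 1 was in Erg Rescue pre-proB. Pde2a had 5 of 8 over 25.9 kb with 22 to 58 fragments, all 5 in WT proB and none in Erg Rescue pre-proB. At Hs3st2 5 of 5 were closed, with at most 26 fragments, 4 of them in WT proB.

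The remaining runs were of weaker or less certain peaks. At Rhoh 5 of 12 were closed, of which 4 were in WT proB, and at Cds2 and Pcna 5 of 13, of which 3 were. Mbnl1 (7 of 19), St8sia4 (6 of 12), Cd47 (6 of 11), Fyn (5 of 12), Prkcd (5 of 15) and Serinc3 with Ttpal (5 of 7) had runs of which at most 2 peaks were in WT proB. The runs at Zfp981 and Zfp992 on chromosome 4 (14 of 50), at Prl2c2 and Prl2c3 on chromosome 13 (8 of 24) and at Gm21860 on chromosome Y (8 of 8) lie in gene families of near-identical copies, where the place of a read is uncertain. Zfp981 and the Prl2c genes had runs in the opened direction too.

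Opened peaks gathered more at single genes in the full lists, of which the Erg KO list was the longer, and had low pileups. They were nearest to 7437 of 17127 genes, with 1479 nearest to at least 3, 431 to at least 5 and 36 to at least 10, and made 63 runs that held 475 peaks. With the lists cut to equal length 806 genes were nearest to at least 3 opened peaks and 766 to at least 3 closed ones, and the order of the runs turned, with 18 of opened and 31 of closed peaks. Runx2, which encodes a Runt factor expressed in plasmacytoid dendritic cells and in bone, led with 36 of 107 Erg KO peaks opened. In a stretch of 124 kb within the gene (chr17:44599167-44723486) 34 of 85 Erg KO peaks were opened, with 14 to 24 fragments, of which 12 were in Erg Rescue pre-proB, 0 in WT preB and 1 in WT proB. None of the 36 was clear. WT had 85 peaks nearest to Runx2, of which 5 were closed, and its promoter had 86 fragments in WT and 105 in Erg KO. With the lists cut to equal length 17 of 77 were opened.

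The other genes with the most opened peaks had low pileups as well. Auts2 (19 of 53), Thrb (16 of 41), Adgrl2 (15 of 121), Lrrn3 (14 of 31), Mctp2 (14 of 48), Inpp4b (13 of 39) and Tet2 (14 of 51) had none above the counting limit apart from 1 at Tet2. With the lists cut to equal length the counts were 16 at Auts2, 11 at Thrb, 13 at Adgrl2, 11 at Lrrn3, 7 at Mctp2, 11 at Inpp4b, 11 at Tet2, 12 at Bcl11a and 8 at Zeb2. Bcl11a (15 of 90), a zinc finger factor of lymphoid progenitors, and Zeb2 (14 of 69), a repressor known from dendritic and myeloid cells, are transcription factors. A ranking by count favours genes with many peaks. In the full lists the opened share at Adgrl2, 12.4%, was below the 13.6% of all Erg KO peaks, and Bcl11a had 16.7%. Of the 19 at Auts2, 13 were in Erg Rescue pre-proB and 2 in WT proB, and of the 14 at Mctp2, 7 and 0. Lrrn3 differed, with 7 in Erg Rescue pre-proB and 7 in WT proB. Prl2c3 (31 of 59), Prl2c2 (17 of 26), Zfp988 (19 of 48) and Zfp981 (12 of 39) belong to families of near-identical copies, and at equal length they had 18, 6, 10 and 10.

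Among the largest runs of opened peaks, those at the Prl2c genes (48 of 84), at Zfp988 (19 of 34), at Zfp982 with Zfp985 (17 of 32), at Zfp981 (12 of 28), at Zfp992 (9 of 22) and at Gm47283 on chromosome Y (10 of 12) were in such families. The others of the first 10 were Runx2, Hpcal1 (9 of 24), Mbnl1 (9 of 26) and Ikzf1, which encodes Ikaros, with 8 of 21. At Ikzf1 the 8 had 16 to 23 fragments, and 4 were in Erg Rescue pre-proB and 1 in WT proB.

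The strongest opened peaks outside the antigen receptor loci were lower than the strongest closed ones. They lay 25297 bp from Rims2 (60 fragments, 45.8 to 77.2), 126208 bp from Fam3c (59), 762029 bp from Ncam2 (56), nearest to Glcci1 within Ica1 (53), near Fam110a (52), Xpo1 (49) and Cp (48), nearest to Cmtm5 within Myh6 (47), in Rere (47) and near Rassf9 (45). Of these 10, 7 were in Erg Rescue pre-proB, while those near Ncam2 and Glcci1 were in no other library. The windows of the first and the third are given with the strongest opened peaks of Gata3, Tcf7 and Runx2, to set them beside the closed ones. Capitals again mark CACCTG or CAGCTG, and none of the 5 windows held TCCCNNGGGA.
Peak nearest to Rims2, chr15:39172960-39173110: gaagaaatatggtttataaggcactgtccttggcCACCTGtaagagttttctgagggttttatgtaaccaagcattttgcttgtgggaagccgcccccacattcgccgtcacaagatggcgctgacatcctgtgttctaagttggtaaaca
Peak nearest to Ncam2, chr16:81962651-81962801: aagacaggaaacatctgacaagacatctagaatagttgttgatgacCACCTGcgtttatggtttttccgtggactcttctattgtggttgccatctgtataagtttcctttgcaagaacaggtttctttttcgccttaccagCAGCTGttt
Peak nearest to Gata3, chr2:9810928-9811078: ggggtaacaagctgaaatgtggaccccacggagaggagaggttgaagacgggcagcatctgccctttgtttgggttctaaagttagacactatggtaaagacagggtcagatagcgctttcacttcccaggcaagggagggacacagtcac
Peak nearest to Tcf7, chr11:52299784-52299934: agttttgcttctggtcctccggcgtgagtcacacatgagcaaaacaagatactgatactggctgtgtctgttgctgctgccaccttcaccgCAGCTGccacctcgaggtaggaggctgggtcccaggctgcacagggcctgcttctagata
Strongest opened peak in Runx2, chr17:44653299-44653449: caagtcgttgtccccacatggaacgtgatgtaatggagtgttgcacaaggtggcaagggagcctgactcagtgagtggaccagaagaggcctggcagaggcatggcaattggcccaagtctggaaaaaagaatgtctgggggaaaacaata

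**Figure D5:**
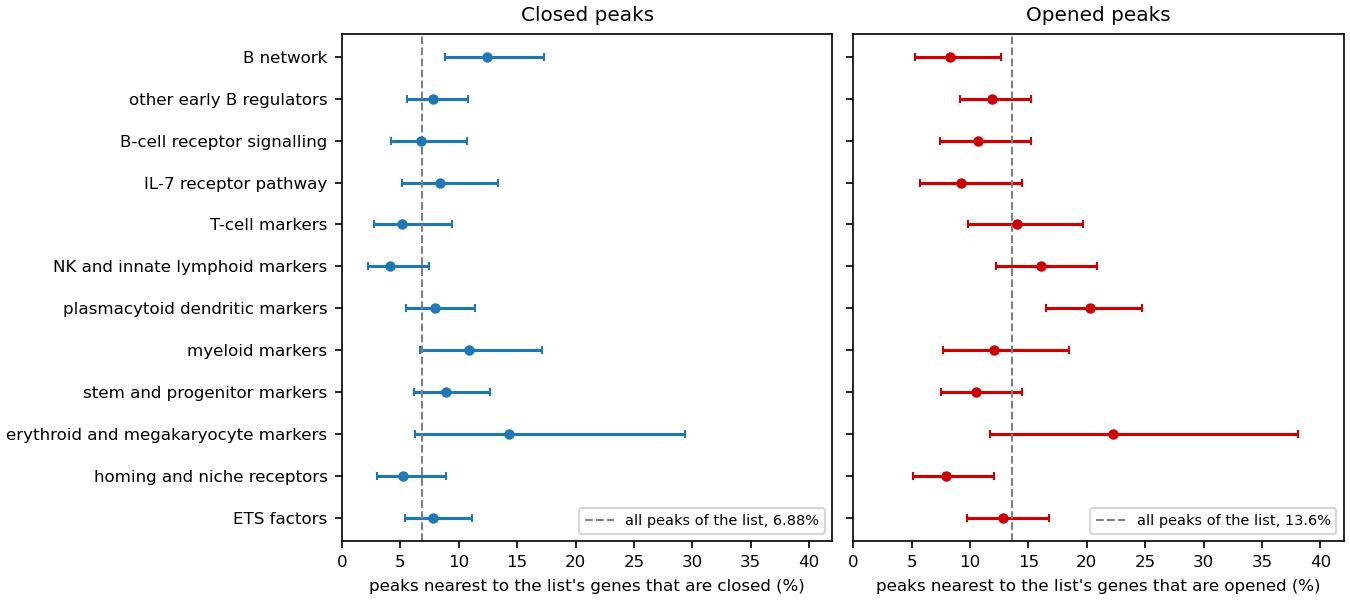
Share of the peaks nearest to the genes of each list that were closed (left, of WT peaks) or opened (right, of Erg KO peaks), with 95% Wilson intervals and the share over all peaks as a dashed line. The B network lay at 12.4% against 6.88% for closed peaks and the plasmacytoid dendritic list at 20.3% against 13.6% for opened peaks.

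Of the 12 gene lists, the plasmacytoid dendritic markers had the highest share of opened peaks among lists with over 100 peaks. There 74 of 365 Erg KO peaks were opened (20.3%, 16.5 to 24.7), of which Runx2 gave 36, Zeb2 14 and Tcf4 12, and none was clear. Relative to all peaks this share was 1.495 times, but 0.502 times at a −log10 q of at least 10 and 1.03 times with the nearest TSS of any gene. Of the WT peaks 26 of 327 were closed (7.95%, 5.48 to 11.4), and 2 of them were clear, with 56 fragments in the peak nearest to Zeb2, which lay 1407987 bp away, and 36 within Tcf4. Tcf4, which encodes the E protein that directs plasmacytoid dendritic cells, had 12 of 77 opened and 7 of 73 closed. All 15 genes of the list had a promoter peak in both libraries, and Siglech, a surface lectin of these cells, had 522 fragments in WT and 561 in Erg KO.

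The NK and innate lymphoid list had 44 of 274 opened (16.1%, 12.2 to 20.9), an interval that held the 13.6% of all Erg KO peaks. Of its WT peaks 10 of 242 were closed (4.13%, 2.26 to 7.44), against 6.88% of all. Id2, an inhibitor of E proteins, had 9 of 78 opened, a share below that of all peaks. Tox had 9 of 33, Nfil3 7 of 20 and Rora 5 of 16, and none of the list's opened peaks was clear. Of the 7 at Nfil3 5 were in Erg Rescue pre-proB and 1 in WT proB. In both libraries 16 of the 20 genes had a promoter peak. Klrb1c, which encodes the NK1.1 antigen by which cells were left out of the sort, had a promoter peak of 203 fragments in WT and 191 in Erg KO, and Ncr1 and Gzmb had none in either.

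T-cell genes had a share of opened peaks near that of all peaks, with 27 of 192 (14.1%, 9.85 to 19.7), and 9 of 176 closed. Gata3, a T-lineage and innate lymphoid factor, had 5 of 23 opened, all 5 in Erg Rescue pre-proB, and 1 in WT proB, and 1 of the 5 was clear, with 34 fragments (23.5 to 47.5) 67597 bp from its TSS. Tcf7, which encodes TCF1, had a clear opened peak of 36 fragments 16845 bp away, and its promoter had 27 fragments in Erg KO, 26 in Erg Rescue pre-proB and no peak in WT pre-proB, but 55 in WT proB. Bcl11b, Cd4 and Tcf7 were the 3 of 20 genes with a promoter peak in Erg KO only, where 1.48% of all coding genes had one. None of these promoter gains was above the counting limit, and the only opened peaks at Bcl11b and Cd4 had 19 and 31 fragments. Of the 20 genes 13 had a promoter peak in WT against 16 in Erg KO. Cd3e and Cd3d had no promoter peak in any of the 7 libraries.

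Some of the remaining lists had opened shares below that of all Erg KO peaks, 13.6%. The homing and niche receptors had 19 of 239 opened (7.95%, 5.15 to 12.1) and 12 of 229 closed (5.24%, 3.02 to 8.93, against 6.88% of all). Other early B regulators had 32 of 411 closed (7.79%) and 52 of 438 opened (11.9%), with 7 closed each at Mef2c, Bcl11a and Foxp1 and 3 each at Foxo1 and Ikzf1. B-cell receptor signalling genes had 16 of 237 closed (6.75%) and 26 of 243 opened (10.7%), with 2 of 4 peaks closed at Ms4a1 and 7 of 26 opened at Lyn. The IL-7 receptor pathway had 16 of 174 opened (9.20%, 5.74 to 14.4) and 15 of 179 closed (8.38%), of which 2 were clear peaks at Jak1 with 43 and 37 fragments, and the promoter of Il7r had 205 fragments in WT and 282 in Erg KO. At Bcl2 3 of 29 were closed, all 3 in WT proB, and 6 of 33 were opened, none in WT proB. Socs2 had 3 of 11 closed, all in WT proB and none in Erg Rescue pre-proB.

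ETS family genes had 26 of 334 closed (7.78%, 5.37 to 11.2), of which Erg gave 7, Fli1 5 and Ets1 3, and 45 of 351 opened (12.8%). Ets2 had a clear closed peak of 40 fragments 113469 bp from its TSS. Stem and progenitor genes had 27 of 303 closed (8.91%, 6.20 to 12.7). Lmo2, a partner of bHLH factors in blood progenitors, had 6 of 22 closed, all 6 in each of the proB and preB libraries and none in Erg Rescue pre-proB. Myeloid genes had 15 of 138 closed (10.9%, 6.70 to 17.2), 5 of which were at Klf4, and homing receptors had 12 of 229 (5.24%), of which a peak of 39 fragments 3706 bp from Cxcr5 was clear. Erythroid and megakaryocyte genes had too few peaks to read, with 5 of 35 closed and 8 of 36 opened.

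At the antigen receptor loci the directions differed. In Tcra with Tcrd 30 of 92 Erg KO peaks were opened (32.6%), of which 8 were clear, and 1 of 61 WT peaks was closed. The 8 clear peaks lay in a block of the locus (chr14:53045279-53140029) in which the Erg KO library had 12 peaks, the highest of 418 fragments, and the WT pre-proB library had 0. Erg Rescue pre-proB had 12 peaks there, the highest of 459, Erg Rescue proB had 8 with at most 57, and Erg Rescue preB had 9 with at most 50. WT proB and WT preB had 0. The block was thus marked in all 4 libraries that carried Rag1Cre and the deleted Erg allele and in none of the 3 without them, and the transgene, the deletion and any other difference between these mice cannot be told apart.

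In Igk 10 of 67 WT peaks were closed (14.9%), of which 4 were clear, with 30, 34, 45 and 50 fragments. All 4 were in all 4 proB and preB libraries and in neither Erg-deleted pre-proB library. In the reverse direction 16 of 74 were opened (21.6%, against 13.6% of all Erg KO peaks), 1 of them clear. The clear one, of 36 fragments, was called in all 5 other libraries. Of the 16, 8 were in WT proB, 11 in WT preB and 13 in Erg Rescue pre-proB. In Igh 13 of 160 were closed (8.12%) and 20 of 170 opened (11.8%), near the shares over all peaks, and none was clear in either direction. Igl had 0 of 14 closed and 3 of 17 opened, Tcrb had 2 of 50 closed and 4 of 52 opened, and Tcrg had 2 of 20 in each direction. Only in Tcrb, with 1 of 43 fragments, and Igl, with 1 of 34, was an opened peak of these smaller loci clear.

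Both libraries were compared at marker promoters, several of which were open at later stages too. Ptprc, which encodes the B220 antigen used in the sort, had 285 fragments in WT and 281 in Erg KO, Flt3 635 and 656, and Kit 134 and 126. Of the myeloid list 11 of 17 genes had a promoter peak in each library, with Itgam at 143 and 139 and Mpo at none in either. The erythroid factor Gata1 had none in either library, while Klf1 had 179 and 194. Ptprc, Flt3 and Klf1 had 247, 495 and 227 fragments in WT proB and 214, 525 and 187 in WT preB. Itgam was lower there, at 21 and 23, as was Siglech, at 100 and 169.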

How the data were processed

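ATAC-seq peak lists of 7 libraries, 1 per group, were used as deposited. Per the labels and the study's methods, the authors aligned reads with Bowtie2 to mm10 and called peaks per library with MACS2, and the submitters' processing notes also name CASAVA 1.8.2 and Picard. The labels name tagmentation with Tn5, while the study's methods name sonication of the nuclei. The source names of the 3 Erg Rescue libraries give another stage than their titles, and groups were taken from the titles. The deposited lists give for each peak a fold over background at the summit as a ratio, −log10 p and −log10 q values, a score of 10 times the −log10 q value, and the offset of the summit. The methods give a minimum number of reads for the libraries but no depth for each, and shifting of cut sites is not described.

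The fold of MACS2 is the pileup plus 1 over the background plus 1, so all folds of a library are multiples of 1 step, and in all 7 libraries 100% of folds gave whole pileups within 0.02. Background pileups ran from 3.49 to 4.60 fragments, which sets the depth and thereby the counting error. Intervals on shares are 95% Wilson intervals and those on pileups are exact Poisson intervals. Both cover counting error only, since fragments were amplified by PCR.

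Peaks were assigned to the nearest TSS of a coding gene in GENCODE M21 basic (GRCm38), promoters were taken as 1000 bp to either side of a TSS, and 17 sequence patterns were searched in 200 bp around summits in the GRCm38.p6 genome. The genes named were Erg, the B network, the 15 autosomal genes with the most closed and with the most opened peaks (ties by summed fold), the 10 autosomal peaks and the 10 promoters of highest fold in each direction, list members with at least 2 closed or 2 opened peaks, and all runs of at least 5 peaks or the first 10 per direction, with peaks in antigen receptor loci left out of the rankings. Marker promoters, list members with 1 clear peak and genes ranked by clear peaks or clear promoters were named after their values were seen. Members and lists were chosen with earlier results of these data known. The counting limit, the rankings by clear peaks, and the analyses outside promoters and on autosomes were chosen after seeing the data. Alternatives covered list length, q value, overlap, distance, gap, gene set and window. Python 3.11.15, pandas 2.3.3, NumPy 2.4.6, SciPy 1.17.1 and matplotlib 3.10.9 were used, and the overlap classes, the runs and the recovery of pileups were tested on simulated data, while the pattern search was not. Some of the results that these rules select are not reported here.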

Additional observations from a re-analysis of the deposited data

How the results depend on the processing

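With 1 library a group, no replicate could be left out and no test was run. No paired analysis was possible because each group held 1 library. Of 96 values that answer a comparison under an alternative, 32 moved by less than their counting interval, or for counts by less than 1.5 times, and 64 moved. Among single genes, lists and patterns 92 stayed and 40 moved. The causes of these moves were not tested beyond what each alternative's construction shows. The limits of peaks above counting error, autosomes only, and peaks outside promoters were chosen after seeing the data.

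Closed peaks were 9.18% of the list with both lists cut to equal length, 6.52% at 50000 peaks, 1.64% at a −log10 q of at least 10, 11.5% under reciprocal overlap, 5.66% with a 500 bp margin and 0.928% above the counting limit. Opened peaks were 9.91%, 6.81%, 1.85%, 17.5%, 11.4% and 0.317% under the same settings. The excess of opened over closed peaks was thus 13.6% against 6.88% in the full lists and 9.91% against 9.18% at equal length, and it turned above the counting limit.

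Runs of closed peaks numbered 31 at equal length, 0 at the stricter q, 4 with the 500 bp margin, 5 with gaps of at most 10 kb and 70 with gaps of at most 50 kb. Runs of opened peaks numbered 18, 0, 32, 33 and 266. Genes nearest to at least 3 closed peaks numbered 766 at equal length, 20 at the stricter q, 211 with the nearest TSS of any gene and 7 above the counting limit, and those nearest to at least 3 opened peaks 806, 25, 752 and 3.

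Relative to all peaks, the closed share of the B network, 1.81, became 3.40 at the stricter q, 5.63 above the counting limit and 2.91 with the nearest TSS of any gene. The opened share of the NK and innate lymphoid list, 1.18, became 0 at the stricter q and 0 above the counting limit. That of the plasmacytoid dendritic list, 1.495, became 0.502, 0 and, with the nearest TSS of any gene, 1.03. The share of opened peaks in Tcra with Tcrd became 18.6% at the stricter q and 16.7% above the counting limit.

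Closed peaks were present in WT proB in 66.5% with the 500 bp margin, 59.4% with all libraries cut to the shortest list and 97.6% above the counting limit, and in Erg Rescue pre-proB in 50.5%, 35.2% and 19.1%. Opened peaks were present in WT proB in 33.5% and 30.3% under the first 2 settings, and in Erg Rescue pre-proB in 70.9%, 54.2% and, above the counting limit, 94.1%.

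Relative to shared peaks, the EBF1 letters in closed peaks, 6.96, became 4.50 in 400 bp windows, 5.74 at equal length, 19.5 above the counting limit and 8.07 outside promoters. The E-box letters, 1.05, became 1.17 against peaks matched on pileup, 1.01 at equal length, 1.54 above the counting limit and 0.997 outside promoters. The ETS letters, 1.27, became 1.53 against matched peaks and 1.90 above the counting limit, and the octamer, 2.23, became 1.74 in 400 bp windows and 3.69 above the counting limit. The EBF1 letters in opened peaks, 0.678, became 1.26 above the counting limit, which was 1 window of 204.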
